A study of Homo sapiens with 6 samples.

Results

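Protein phosphatase 1 (PP1) was followed here through 10 genes, the 3 catalytic genes PPP1CA, PPP1CB and PPP1CC and the regulatory genes PPP1R2, PPP1R7, PPP1R8, PPP1R10, PPP1R11, PPP1R12A and PPP1R13B, out of 63140 genes in the count table. They were chosen by family name, with PPP1R11 known to be among the largest falls in these libraries and PPP1R10 known as a published miR-34a target. The values of the contrast thus helped choose the set, and fold changes and calls of the 10 genes are given as a description. All 10 were among the 17427 genes kept by the filter on low counts. HEK293T cells, a human line derived from embryonic kidney and made immortal in culture, had received either miR-34a duplex (3 libraries) or the AllStars negative control (3 libraries) by transfection, and RNA was taken 18 h later. The sample labels call the control an siRNA and the series text calls it a miRNA. Both groups were transfected, and no untransfected cells entered the comparison. Replicates are described as biological, but nothing says whether they were separate cultures, so errors measure the spread between these libraries. The transfected duplex itself is not measured by these counts.

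PP1 is a serine/threonine phosphatase whose catalytic subunit does not act alone. It is held by a large set of regulatory proteins, many of which dock through short motifs and decide where the enzyme sits and what it dephosphorylates, while others inhibit it. SDS22 (PPP1R7) and inhibitor-3 (PPP1R11) bind newly made catalytic subunits in a common complex before these pass to other partners. A microRNA lowers mRNAs that pair with its seed, the bases near its 5′ end.

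Libraries held 24728662 to 36650331 counts. The cell line markers VIM, NEFM, NEFL and INA were at 41.7 to 228 CPM (counts scaled to a common library size by TMM factors) in every library and PAX2 at 1.14 to 2.24 CPM. PTPRC, ALB and PECAM1, which mark leukocytes, hepatocytes and endothelium, stayed at or below 0.164 CPM, while the collagen gene COL1A1, listed for fibroblasts, was at 21.2 to 27.3 CPM. Over all genes tested, 6.70% were called lower and 5.38% higher with miR-34a (adjusted p under 0.05, edgeR quasi-likelihood test).

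The sequences that matter here are the guide strand of miR-34a and the places in PP1 mRNAs that match its seed. The mature miR-34a-5p (RefSeq, GRCh38.p14) is shown first with its seed, bases 2 to 8, in capitals. Below it are the matches of at least 7 bases in the 3′ untranslated regions (3′ UTRs) of the members, taken from GENCODE 29 transcripts on GRCh38, with the match in capitals and the bases before it in lower case, all 5′ to 3′ on the mRNA strand.
hsa-miR-34a-5p: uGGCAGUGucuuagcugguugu
PPP1R11, first match: cccagtgtcttccttttgttctCACTGCCA
PPP1R11, next match: ggttttcaacagtcccagctttCACTGCCA
PPP1R8: ttgtctctcagtcactgattgcCACTGCCA
PPP1R10: gggcctgaaagtcacactacatgCACTGCC
PPP1CC, in a pair of its transcripts: atgtcgttttgaCACTGCC

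PPP1R11 held a pair of 8mers (CACTGCCA), PPP1R8 an 8mer and PPP1R10 a 7mer-m8 (CACTGCC). Other kinds searched were the 7mer-A1 (ACTGCCA) and the 6mer (ACTGCC), which lie within the 8mer, so that each match was counted once, under its longest form. The search used the sense strand of the transcript with the longest coding sequence. By it, 3 of the 10 members (30%) had a 7mer or 8mer, against 20.9% of 12896 tested genes that could be classed. The PPP1R11 8mers lie at chr6:30069570-30069577 and chr6:30069669-30069676 (plus strand, last exon), 264 and 363 nt after the stop codon and 99 nt apart, and all 6 protein-coding transcripts of the gene carry both. The second has a match to miR-34a positions 13 to 16 within the printed bases before it; the others do not. The PPP1R8 8mer, at chr1:27851571-27851578 (plus strand, exon 7 of 7), starts 1125 nt after the stop codon in a 3′ UTR of 1230 nt, and 2 of 4 protein-coding transcripts hold it. The PPP1R10 match, at chr6:30600721-30600727 (minus strand, exon 20 of 20), starts 822 nt after the stop codon in the only protein-coding transcript.

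The choice of transcript mattered for PPP1CC. Its longest coding sequence ends in a 3′ UTR of 226 nt with no match, whereas 2 of its 6 protein-coding transcripts hold a 7mer-m8 at chr12:110721057-110721063 (minus strand, last exon), 13 nt after their stop codon. Taking any protein-coding transcript, 4 members had a 7mer or 8mer. PPP1CA, PPP1CB and PPP1R2 had no match in any 3′ UTR searched, although that of PPP1CB runs over 3637 nt and that of PPP1R2 over 2471 nt. PPP1R7, PPP1R12A and PPP1R13B had a single 6mer each. In coding sequence, PPP1R8 and PPP1R12A each held a 7mer-m8, and no member held a 7mer or 8mer in its 5′ UTR. In the 30 bases on each side of a match, A and U made up 53.3% for either PPP1R11 8mer and 56.7% for the PPP1R8 8mer, beside a median of 50% over 736 8mers of tested genes. For the PPP1R10 match the share was 41.7%, beside a median of 45% over 1737 7mer-m8 matches.

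**Figure D1:**
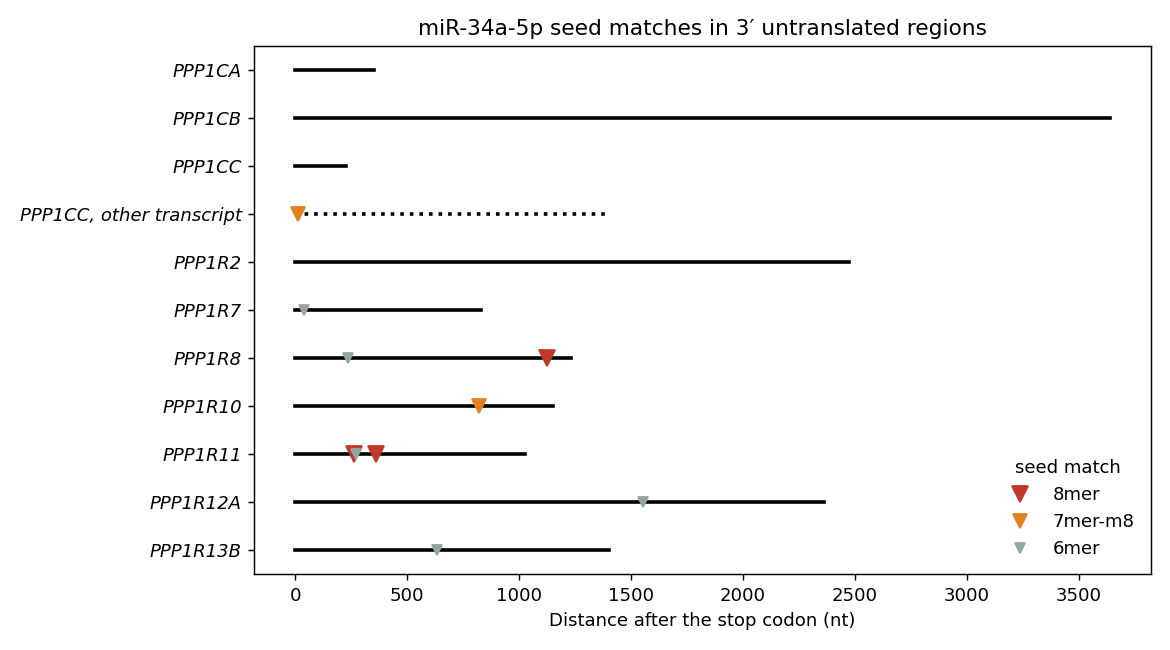
Seed matches to miR-34a-5p along the 3′ UTRs of the 10 members. The x axis is the distance after the stop codon in nt, lines span each 3′ UTR, triangles mark matches by class, and the dotted line is the longer PPP1CC transcript with a match. The pair of 8mers of PPP1R11 lies at 264 and 363 nt, the 8mer of PPP1R8 near the end of its 3′ UTR at 1125 nt.

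The gene of inhibitor-3 was the member that differed most. PPP1R11 (ENSG00000204619, chr6:30066709-30070333), which encodes this small PP1 inhibitor, had 15.3, 15.4 and 14.5 CPM in miR-34a libraries 1 to 3, against 38.9, 40.8 and 38.1 CPM in the control libraries. The raw counts behind these were 385, 449 and 538 with miR-34a and 951, 1337 and 1227 in the control. The groups lie far apart, and the spread within each is small: coefficients of variation were 3.04% with miR-34a and 3.45% in the control. The mRNA stood at 38.4% of its control level with miR-34a, a log2 fold change of -1.38 ± 0.08 (SE), the 18th lowest of the 17427 tested. Over the 12 alternative settings and left-out libraries its log2 fold change stayed between -1.40 and -1.35 and its call was kept in each.

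Among genes with the same kind of match PPP1R11 sat at the low end. Its fall was known when the set was chosen, so these ranks are a description. It had the 5th lowest log2 fold change of 675 genes whose strongest match was an 8mer, and the lowest of 50 genes with at least 2 8mers. The median of those 50 genes was -0.12, the next lowest value after PPP1R11 was -1.19, and 14 of them were called lower. PPP1R11 shares 2.68% of its exonic length with RNF39 on the opposite strand, which was at 0.656 ± 0.0778 CPM with miR-34a and 1.03 ± 0.273 CPM in the control (SD, n = 3); the part of shared reads was not tested. Its 2 annotated pseudogenes held 4 counts in all libraries together.

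The members with the other matches differed little between the groups. PPP1R8 encodes NIPP1, a nuclear PP1 inhibitor linked to splicing factors. It had 161, 161 and 147 CPM with miR-34a, against 162, 149 and 167 CPM in the control. The groups overlap, and the log2 fold change was -0.03 ± 0.07 (SE), with a 95% interval of -0.17 to 0.12; 65.0% of the 8mer genes had a lower value. Its sign turned without control replicate 3 (0.0072) and without miR-34a replicate 3 (0.0129).

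PPP1R10 encodes PNUTS, a nuclear targeting subunit that brings PP1 to chromatin and to RNA polymerase II, and is described as a miR-34a target in the heart. It had 110, 116 and 111 CPM in the miR-34a libraries, against 118, 114 and 116 CPM in the control libraries. These groups overlap too. The log2 fold change was -0.05 ± 0.07, with a 95% interval of -0.18 to 0.09, so a fall of more than 0.18 on the log2 scale lies outside it. Of 1324 genes with a 7mer-m8 as strongest match, 56.2% had a lower value than PPP1R10. Its partners in the PTW/PP1 complex had log2 fold changes of 0.17 ± 0.07 (WDR82, adjusted p = 0.12, edgeR) and -0.01 ± 0.07 (TOX4, adjusted p = 0.96, edgeR), and neither passed. WDR82 and TOX4 were named after their values were seen.

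**Figure D2:**
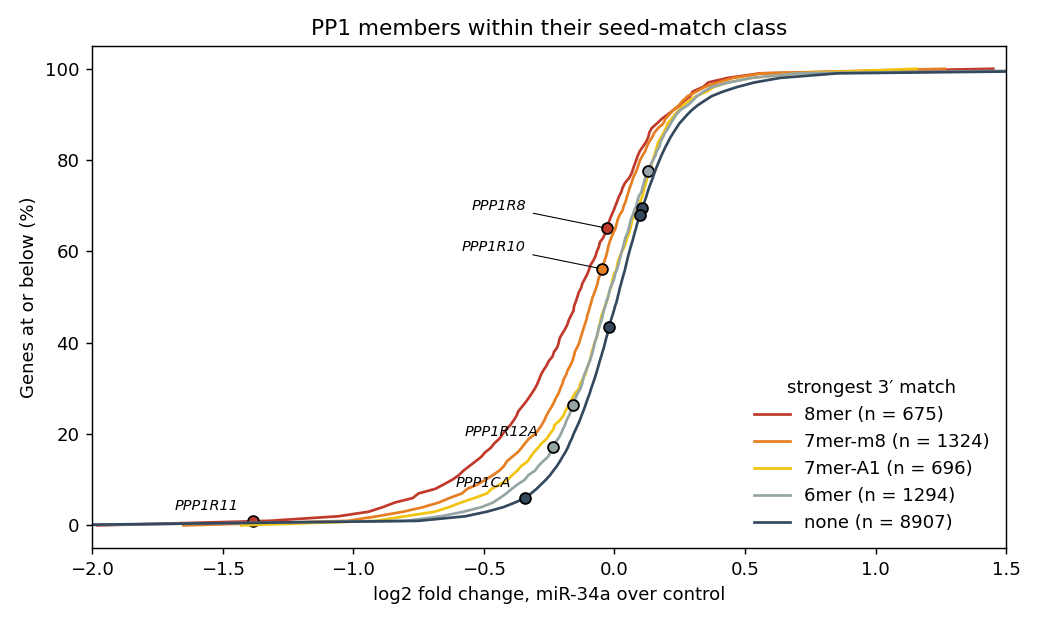
Cumulative distribution of log2 fold changes (miR-34a over control, x axis) for tested genes grouped by their strongest 3′ UTR match, as the percentage of genes at or below each value (y axis). Circles mark the members on the curve of their own class; PPP1R11 lies at -1.38 at the foot of the 8mer curve, and PPP1R8 and PPP1R10 lie above the middle of theirs.

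Among the catalytic genes PPP1CA was lower, PPP1CB and PPP1CC were not called. PPP1CA, the alpha isoform, had 124, 114 and 110 CPM with miR-34a, against 147, 152 and 141 CPM in the control. All miR-34a libraries lie below all control libraries, a log2 fold change of -0.34 ± 0.07 (SE), and the call was kept in all 12 alternatives (-0.39 to -0.31). PPP1CA had no seed match in its 3′ UTR or 5′ UTR and a 6mer in its coding sequence; only 6.04% of the 8907 genes with no 3′ UTR match had a lower log2 fold change. On the opposite strand it shares 8.41% of its exonic length with RAD9A (24.7 ± 0.239 CPM with miR-34a and 27.6 ± 2.69 CPM in the control), 11.7% with CARNS1 and 6.86% with TBC1D10C, both of these below 1 CPM. The library chemistry does not mark strand, and the part of such reads in the PPP1CA value was not tested.

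PPP1CB, the beta isoform and the usual partner of myosin phosphatase, had 211, 206 and 182 CPM with miR-34a, against 189, 180 and 187 CPM in the control. Its log2 fold change was 0.11 ± 0.07, with a 95% interval of -0.04 to 0.25. PPP1CC, the gamma isoform, was the most abundant member, at 433, 420 and 395 CPM with miR-34a and 426, 405 and 434 CPM in the control. Its log2 fold change was -0.02 ± 0.07, with an interval of -0.16 to 0.12, and turned to 0.0026 without control replicate 3 and to 0.0166 without miR-34a replicate 3. Groups overlap for both genes.

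Because CPM does not correct for gene length, levels of different genes are compared as CPM per kilobase of annotated exon. On this scale PPP1CA made up 31.4, 30.4 and 31.4% of the summed catalytic level in the miR-34a libraries, against 36.5, 38.4 and 35.3% in the control libraries. The PPP1CB share was 25.1 ± 0.674% with miR-34a and 21.8 ± 0.342% in the control, and the PPP1CC share 43.8 ± 0.447% with miR-34a and 41.4 ± 1.26% in the control (SD, n = 3). No library of either group overlaps with the other group in these shares, and the shares sum to a fixed total, so they are not separate findings. The summed level was 138 ± 7.76 CPM per kb with miR-34a and 148 ± 1.35 CPM per kb in the control. The size of each share depends on the length used: with that of the transcript with the longest coding sequence, the PPP1CA share was 20.5% with miR-34a and 24.6% in the control, the PPP1CB share 10.02% with miR-34a and 8.80% in the control, and the PPP1CC share 69.5% with miR-34a and 66.6% in the control. In each case the share with miR-34a lay on the same side of the control share as with exon lengths. For PPP1CA and PPP1CB this was fixed in advance, because a gene has the same length in every library. Their folds (miR-34a over control) of 0.790 and 1.08 were the lowest and highest of the 3 genes. Only the direction of the PPP1CC share (fold 0.986) could depend on the lengths.

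**Figure D3:**
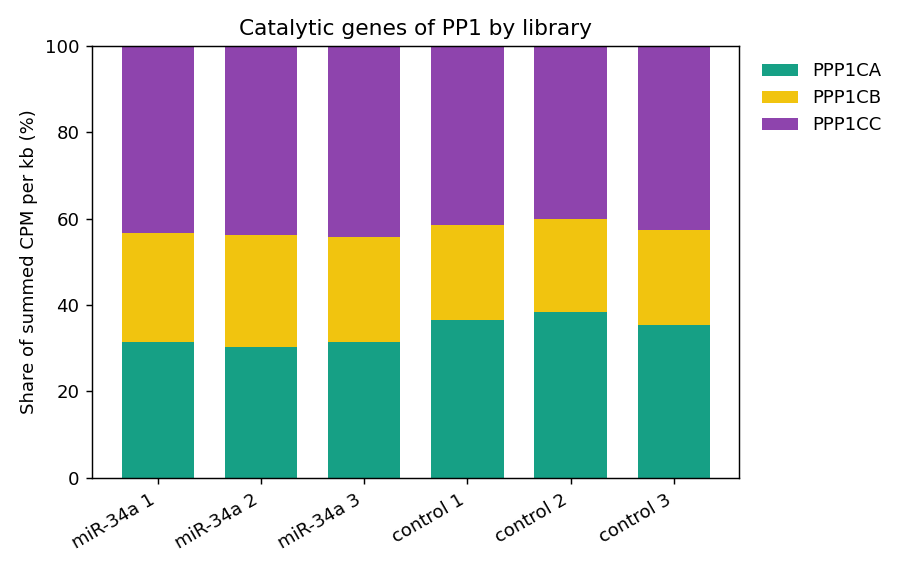
Share of PPP1CA, PPP1CB and PPP1CC in their summed CPM per kilobase, as stacked bars per library (y axis in percent). The PPP1CA part is 30.4 to 31.4% in the miR-34a libraries and 35.3 to 38.4% in the control libraries.

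The mRNA level of PPP1R11 relative to the catalytic genes was lower with miR-34a. This ratio mostly restates the fall of PPP1R11 itself, to 38.4% of its control level. PPP1R11 stood at 4.16, 4.36 and 4.42% of the summed catalytic level with miR-34a, against 10.3, 10.98 and 10.2% in the control, all per kilobase of exon. With the other length, an alternative added after seeing the data, it was 2.07, 2.17 and 2.18% with miR-34a, against 5.17, 5.58 and 5.06% in the control. No choice of lengths could turn this direction, because the fold of PPP1R11 (0.384) was below that of every catalytic gene. In the order of mean levels per kilobase PPP1R11 was 9th of the 10 members with miR-34a, at 5.94 ± 0.180 CPM per kb, and 7th in the control, at 15.5 ± 0.533 CPM per kb (SD, n = 3). PPP1CC led in both groups, followed by PPP1R8, PPP1CA and PPP1CB, and PPP1R13B was last in both. With the other length PPP1R11 kept both places, PPP1CA stood above PPP1R8 in both groups, and in the control PPP1R7 stood above PPP1R10 and PPP1R12A above PPP1R2. Neighbours whose libraries overlap were PPP1R7 and PPP1R10 with miR-34a, and PPP1CC with PPP1R8 and PPP1R8 with PPP1CA in the control.

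PPP1R12A, which encodes MYPT1, the subunit that targets PP1 to myosin, had 80.1, 73.3 and 79.7 CPM with miR-34a, against 99.9, 83.9 and 90.8 CPM in the control. The groups do not overlap, but the control libraries span more than the gap between the groups. The log2 fold change was -0.23 ± 0.07 and passed narrowly. The call was lost in 7 of 12 alternatives: with library sizes alone (-0.22), with a replicate block (-0.23), and without control replicate 1 (-0.16), control replicate 3 (-0.24) or miR-34a replicate 1 (-0.26), 2 (-0.19) or 3 (-0.25).

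PPP1R7 encodes SDS22, the leucine-rich repeat partner that holds PP1 together with inhibitor-3. It had 85.3, 86.9 and 80.1 CPM with miR-34a, against 72.0, 77.0 and 81.4 CPM in the control. The groups overlap, with a log2 fold change of 0.13 ± 0.07 (95% interval -0.02 to 0.28). It shares 17.4% of its exonic length with PASK on the opposite strand, at 64.1 ± 1.57 CPM with miR-34a and 53.3 ± 3.26 CPM in the control (SD, n = 3). PASK rose, with a log2 fold change of 0.27 ± 0.07 (adjusted p = 0.014, edgeR), a call lost without control replicate 3 (0.22) or miR-34a replicate 3 (0.25). The part of shared reads in the PPP1R7 value was not tested.

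PPP1R2, inhibitor-2, had 56.8, 57.0 and 54.0 CPM with miR-34a, against 50.8, 51.9 and 53.9 CPM in the control. Its libraries just fail to overlap, with a log2 fold change of 0.10 ± 0.07 that was not called. The 6 annotated PPP1R2 pseudogenes held 3 counts in all. PPP1R13B encodes ASPP1, a PP1 partner that binds p53, and had 23.5, 22.8 and 24.7 CPM with miR-34a, against 29.9, 25.5 and 24.1 CPM in the control. The groups overlap, the log2 fold change was -0.16 ± 0.09 (95% interval -0.34 to 0.03), and control replicate 1 is the highest library.

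**Figure D4:**
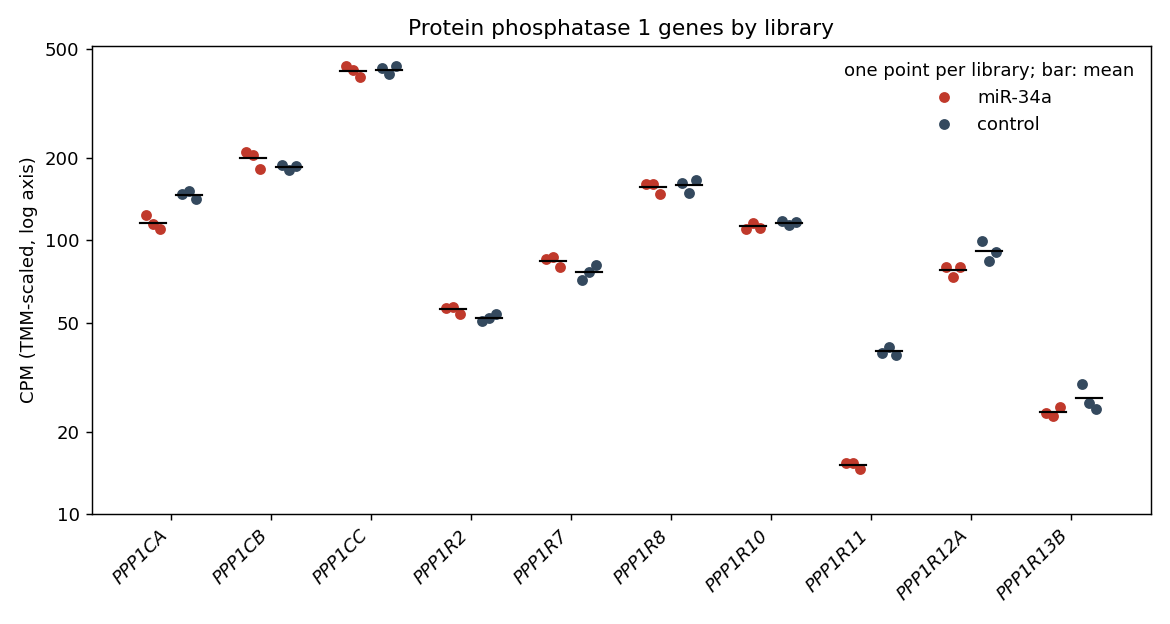
CPM of the 10 members in each library, on a log axis; points are libraries (3 per group), miR-34a left of control, and bars are means. PPP1R11 is near 15 CPM with miR-34a and near 39 CPM in the control, while most other members lie at like levels in both groups.

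As a list, 3 of the 10 members (PPP1R11, PPP1CA and PPP1R12A) were called lower and none higher, beside 6.70% of all tested genes called lower and 5.38% higher. With edgeR 0 members were higher at an unadjusted p under 0.05, and DESeq2 called 0 higher; PPP1R7, PPP1CB and PPP1R2 had the largest positive log2 fold changes, up to 0.13. Libraries failed to overlap for 3 members that were lower and 1 that was higher, beside 14.2% and 13.1% of all genes. The median log2 fold change of the members was -0.04. Since the set was chosen with the fall of PPP1R11 known, nothing is read from these shares.

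A wider list of 54 other PP1 regulators, taken by family name and known binding, gave 46 tested genes, of which 4 fell, 6 rose and 36 did not pass, a share of 21.7% called beside 12.1% of all tested genes, with a median log2 fold change of 0.06. These counts moved with single libraries: 2 fell without control replicate 2, control replicate 3 or miR-34a replicate 2, 3 rose without control replicate 3 or miR-34a replicate 3, and 10 rose without control replicate 1. The count of all genes called moved as well. It was 2105 with every library, 1317 without control replicate 2 and 2681 without control replicate 1. TPRN, a PP1-binding protein of the hair cell stereocilium, fell most, to 18.3 ± 1.22 CPM with miR-34a, against 27.1 ± 0.697 CPM in the control (SD, n = 3), a log2 fold change of -0.57 ± 0.09 (adjusted p = 4.8e-05, edgeR). Its 3′ UTR holds an 8mer. RRP1B, a nucleolar PP1 partner with a 7mer-m8, fell to 309 ± 14.4 CPM with miR-34a, against 398 ± 30.2 CPM in the control (log2 fold change -0.37 ± 0.07, adjusted p = 0.00082, edgeR).

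Of 11 tested subunits of the cytoskeleton, 3 rose and 1 fell, beside 5.38% of all tested genes called higher and 6.70% lower. PHACTR2, an actin- and PP1-binding protein, rose to 55.7 ± 2.09 CPM with miR-34a, against 44.5 ± 2.14 CPM in the control (log2 fold change 0.32 ± 0.07, adjusted p = 0.0035, edgeR). The paralogues of PPP1R12A moved apart. PPP1R12C fell by 0.26 in log2 units (adjusted p = 0.021, edgeR), but not in the fits that left out control replicate 2 (-0.24), control replicate 3 (-0.25) or miR-34a replicate 2 (-0.21). PPP1R12B, whose 3′ UTR holds a pair of 7mers, rose, with a log2 fold change of 0.31 ± 0.09 (adjusted p = 0.020, edgeR). That call was lost without control replicate 2 (0.26), control replicate 3 (0.27) or miR-34a replicate 3 (0.24), and 10.02% of the exonic length of PPP1R12B is shared with SYT2 on the opposite strand. PPP1R16A, a membrane-anchored relative of MYPT1, rose as well, by a log2 fold change of 0.32 ± 0.10 (adjusted p = 0.037, edgeR), which was lost on leaving out control replicate 3 (0.24), miR-34a replicate 2 (0.27) or miR-34a replicate 3 (0.29). It shares 52.6% of its exonic length with an antisense non-coding gene, which was at 5.30 ± 0.493 CPM with miR-34a and 5.38 ± 0.173 CPM in the control (SD, n = 3) and did not pass.

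Of the 2 subunits that direct PP1 to the translation factor eIF2 alpha, the constitutive PPP1R15B rose to 161 ± 5.99 CPM with miR-34a, against 131 ± 9.49 CPM in the control (log2 fold change 0.30 ± 0.07, adjusted p = 0.0048, edgeR), although its 3′ UTR holds a 7mer-A1. The stress-induced PPP1R15A had 0.15 ± 0.09 and did not pass (adjusted p = 0.31, edgeR). Among 4 tested inhibitor proteins PPP1R14B fell by 0.30 (adjusted p = 0.018, edgeR), with overlapping libraries, and lost its call on leaving out control replicate 2 (-0.30), control replicate 3 (-0.20), miR-34a replicate 2 (-0.28) or miR-34a replicate 3 (-0.26). None of 5 glycogen-targeting subunits passed by edgeR (1 higher and 0 lower at an unadjusted p under 0.05; DESeq2 called 0 in either direction); PPP1R3E, which has an 8mer and a further 7mer or 8mer match, had -0.13 ± 0.09 (adjusted p = 0.45, edgeR), and PPP1R3B 0.28 ± 0.10 (adjusted p = 0.070, edgeR). The ASPP genes TP53BP2 and PPP1R13L, relatives of PPP1R13B, had -0.11 ± 0.07 (adjusted p = 0.35, edgeR) and -0.20 ± 0.14 (adjusted p = 0.40, edgeR). Of 12 nuclear and chromosome partners RRP1B was called lower and KIF18A, a mitotic kinesin, higher (0.38 ± 0.08, adjusted p = 0.0015, edgeR). The median log2 fold change of these 12 was 0.16. With edgeR 6 of them were higher and 1 lower at an unadjusted p under 0.05, and DESeq2 called 3 higher and 1 lower. For each list here, the share over all tested genes was 5.38% called higher and 6.70% lower (adjusted p under 0.05, edgeR). DESeq2 called 2244 genes in all, in either direction. The share of all genes at an unadjusted p is not given, so nothing is read from the unadjusted counts. Of 10 tested other partners TPRN fell and PPP1R42 rose; PPP1R42 lay at 0.771 ± 0.222 CPM with miR-34a and 0.314 ± 0.132 CPM in the control and had a call near the threshold (log2 fold change 1.32 ± 0.44, adjusted p = 0.049, edgeR). That call was kept on leaving out control replicate 1, and was lost on leaving out any other library (1.05 to 1.44). DESeq2 did not call PPP1R42 either, with 0 of the other partners higher.

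**Figure D5:**
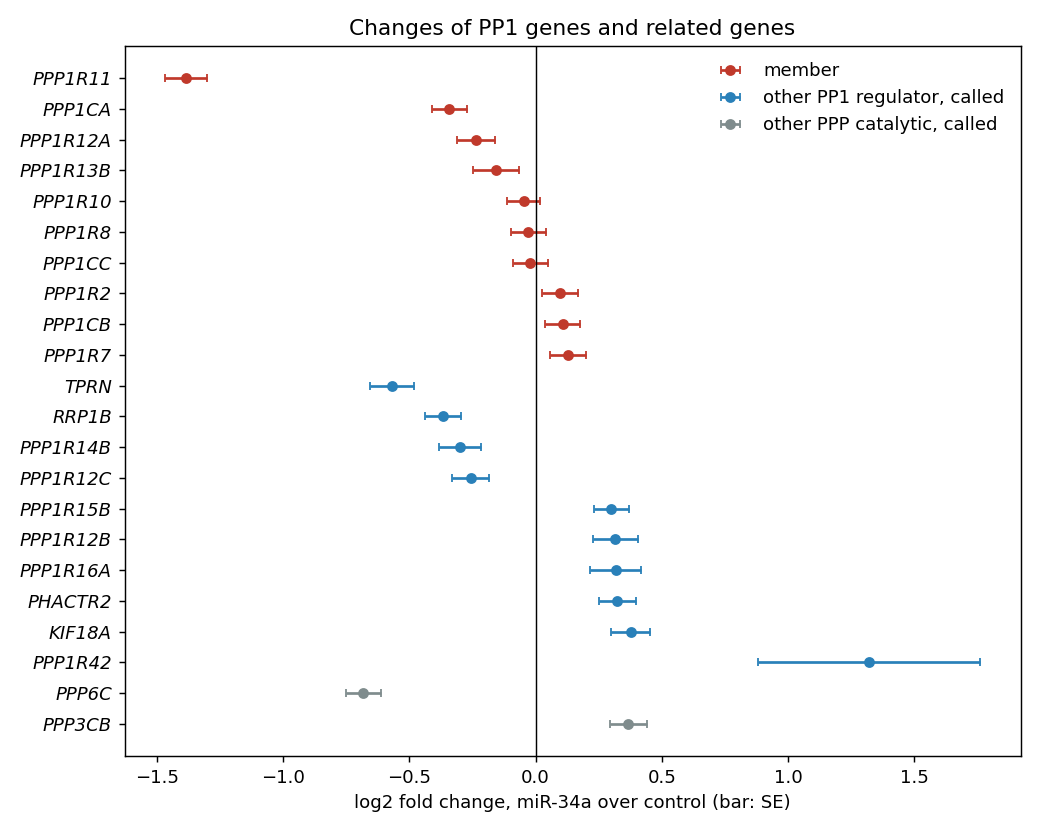
Log2 fold changes of the 10 members, of the other PP1 regulators that were called and of the called catalytic subunits of related phosphatases (x axis, miR-34a over control; bars are SE from the fit over all genes). PPP1R11 lies at -1.38, and apart from the low-count PPP1R42 the other genes drawn lie between -0.68 and 0.38.

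Of the 11 tested genes of the wider list with a 7mer or 8mer in the 3′ UTR, 2 fell, 2 rose and 7 did not pass, and of the 35 without, 2 fell, 4 rose and 29 did not pass. The difference was not tested. Over all classed genes with such a match, 19.4% were called lower and 4.64% higher. For classed genes with no 3′ UTR match these shares were 4.88% and 7.41%. With a 6mer as the strongest match they were 9.97% and 6.57%.

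The genes whose profile over the 6 libraries lay nearest to that of PPP1R11, by Euclidean distance between centred log2 CPM values among 9943 protein-coding genes whose mean log2 CPM reached 3, were MPP2 (distance 0.132), DPYSL4 (0.219), NUP210 (0.256), TPD52 (0.257) and MPV17L2 (0.291). Their falls were 1.30, 1.24, 1.25, 1.36 and 1.49 in log2 units, in that order. The distance is set mainly by the size of the difference between the groups, so these are genes with a like fall and a small spread. DPYSL4, TPD52 and MPV17L2 have an 8mer and NUP210 a 7mer-m8, while the 3′ UTR of MPP2 could not be classed. Of all classed genes, 5.23% had an 8mer and 10.3% a 7mer-m8 as strongest match. Because the 5 genes were picked by a like fall, their matches are a description.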

How the data were processed

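The authors deposited raw counts for each library, by Ensembl gene and without normalization. GRCh38, edgeR 3.42.4, STAR 2.7.11a, Subread 2.0.3 and featureCounts are listed, with no roles, per the submitters' processing notes. Annotation release, strand setting and treatment of multi-mapping reads: not given in the sources used here. Per the labels' protocols, libraries were made with TruSeq RNA v2, which does not mark strand.

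Genes were kept by filterByExpr (minimum count 10, minimum total 15), scaled by TMM and tested by quasi-likelihood (edgeR 4.0.16, R 4.3.3) with a term for group; the Benjamini-Hochberg adjustment ran over all 17427 tested genes and called under 0.05. Fold changes are miR-34a over control; SE is the log2 fold change divided by the square root of F. The median log2 fold change of all tested genes was -0.004. Chi-square per degree of freedom between libraries of a group was 7.64 to 14.3, so none looked deposited in duplicate.

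Symbols came from the reference gene table, and exon lengths, overlaps and 3′ UTRs (50 nt or longer) from GENCODE 29, which carries no MANE tags. Counts simulated for 17023 genes held changes of 1.5-fold and 2-fold only, in 100 genes each. The fit found 90% of the former and 99% of the latter, with 2.58% false among the genes it called. Smaller changes were not simulated, so these rates do not apply to calls below 1.5-fold, such as those of PPP1R12A, PPP1R12C and PPP1R15B.

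The members and lists were chosen with earlier results of these data known. Named genes are the 10 members, tested genes sharing exons with them, up to 4 called genes per other list with the lowest adjusted p (or the 2 most expressed where none passed), tested pseudogenes (there were none) and the 5 genes nearest to PPP1R11; PPP1R15A, WDR82 and TOX4 were named after their values were seen. Alternatives were other scalings, DESeq2 1.42.0, other filters, a replicate block, single libraries left out, and other transcripts and lengths.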

Additional observations from a re-analysis of the deposited data

How the results depend on the processing

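PPP1R11 and PPP1CA kept their calls in all 12 alternative fits, and PPP1R12A in 5 of them. Counts of members called lower were 2 or 3 in every alternative, and no member was called higher in any. Of 456 log2 fold changes of the 39 named genes under an alternative, 422 kept direction and side of the threshold, 29 lost their call and 5 turned sign, none of these 5 called: PPP1CC (0.0026 and 0.0166) and PPP1R8 (0.0072 and 0.0129) without control replicate 3 and without miR-34a replicate 3, and TBC1D10C (-0.1797) without miR-34a replicate 3. Over all left-out libraries PPP1CC ranged from -0.049 to 0.0166, PPP1R8 from -0.0752 to 0.0129 and TBC1D10C from -0.1797 to 0.6546. Among the other PP1 regulators, 10 rose with no filter on low counts. The 4 added calls were all nuclear or chromosome partners that were also tested with the filter, and the cause was not tested. In the same list, over single left-out libraries 2 to 4 fell and 3 to 10 rose. With the length of the transcript with the longest coding sequence, catalytic shares with miR-34a were 20.5% (PPP1CA), 10.02% (PPP1CB) and 69.5% (PPP1CC), and in the control 24.6%, 8.80% and 66.6%; that PPP1CC transcript is far shorter than the annotated exons. With single libraries left out the shares ranged with miR-34a from 30.9 to 31.4% (PPP1CA), and in the control from 35.9 to 37.5%.

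Same-numbered libraries of the groups did not deviate together (correlations -0.025, 0.022 and -0.076, beside -0.061 to 0.088 for other numbers). Whether the numbers pair cultures or transfections cannot be read from these values. With a replicate block 2 members were called lower, 4 other regulators fell and 5 rose, and 1830 genes were called in all, against 2105. Depth does not limit the member values, each resting on at least 385 counts in a library, but genes under 1 CPM, such as PPP1R42, rest on few counts. Levels of mRNA say nothing of protein or phosphatase activity, and 3 libraries per group limit the precision.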

Other observations

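Among catalytic subunits of the related phosphatases, 9 were tested, of which 1 fell, 1 rose and 7 did not pass. Of all tested genes 6.70% were called lower and 5.38% higher. PPP6C, the catalytic subunit of PP6, fell to 89.2 ± 3.995 CPM with miR-34a, against 143 ± 4.97 CPM in the control (SD, n = 3), a log2 fold change of -0.68 ± 0.07 (adjusted p = 9.1e-08, edgeR quasi-likelihood test), lower in all 3 miR-34a libraries; its 3′ UTR holds a 7mer-A1. PPP3CB, a calcineurin catalytic subunit with no match, rose to 75.4 ± 3.85 CPM with miR-34a, against 58.4 ± 3.88 CPM in the control (log2 fold change 0.37 ± 0.07, adjusted p = 0.0011, edgeR), higher in all 3 miR-34a libraries. Both calls were kept in all 12 alternatives. The catalytic subunits of PP2A, PP4 and PP5 did not pass, with log2 fold changes of 0.00 (PPP2CA), 0.05 (PPP2CB), -0.14 (PPP4C) and -0.04 (PPP5C).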
